A study of Mus musculus with 3 samples.

Results

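CD4 T cells recognise peptides on MHC class II molecules and steer other immune cells through surface ligands and cytokines. CD40 ligand, encoded by Cd40lg, gives B cells and dendritic cells a helper signal. Regulatory T cells are a CD4 subset that depends on the transcription factor Foxp3, restrains other T cells and is found in atherosclerotic arteries. In the arterial wall, T and B cells gather mostly in the adventitia, the outer connective tissue layer.

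The barcodes described here were chosen by UMIs (unique molecular identifiers, each standing for 1 captured mRNA molecule) of a fixed set of genes. A barcode was kept with at least 200 detected genes and at most 10% mitochondrial UMIs. It counted as a CD4 T barcode with at least 2 UMIs of Cd3d, Cd3e and Cd3g together and at least 1 UMI of Cd4, Foxp3 or Cd40lg. It also had to lack every UMI of Cd8a, Cd8b1, Cd79a (B cells), Csf1r (macrophages) and Csf3r (neutrophils). This gave 113 CD4 T barcodes among 20903 kept barcodes, of which 21 held a Foxp3 UMI. The other T barcodes, which met the same Cd3 and exclusion criteria, numbered 257. Of these, 140 held a Cd8a or Cd8b1 UMI (CD8 barcodes) and 117 held no UMI of Cd4, Foxp3, Cd40lg, Cd8a or Cd8b1.

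The study sequenced aortas, with adventitia and after removal of fat, from mice on the C57BL/6J background labelled ApoE-/-, that is, lacking apolipoprotein E. One library came from control mice. Another, labelled HHcy, came from mice whose drinking water held homocysteine at 1.8 g/L over 4 weeks, and the last, WD, from mice fed a western diet over 4 weeks. Live nucleated CD45+ leukocytes were sorted and captured with Chromium 3' v3 chemistry, and the labels used here give no number of pooled mice, sex or age. With 1 library per group, no difference between libraries could be tested. Intervals given for them are 95% intervals that cover counting error only, not the variation between mice.

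The deposited matrices held 66789257 UMIs over 7512 barcodes in the control library, 105180370 over 9753 in the HHcy-labelled library and 93164076 over 8557 in the WD library. Between 20 and 24 barcode sequences were shared by each pair of libraries, and no CD4 T barcode was a kept barcode of another library. Apoe, deleted in all groups by their labels, stood at 367.7 CPM (UMIs per 1000000 UMIs summed over the barcodes named) in the kept barcodes of the library labelled HHcy, against 15.8 in control and 19.1 in WD. Among CD4 T barcodes it had 0 UMIs in control, 10 in the HHcy-labelled library and 3 in WD. The genotype label of that library is therefore in doubt, and it is called the library labelled HHcy throughout.

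The genes that chose the CD4 T barcodes were unevenly detected. Cd4, the MHC class II coreceptor (GRCm38 chr6:124864692-124888221), was the only one of Cd4, Foxp3 and Cd40lg in 46 of the 113 barcodes. Cd40lg (chrX:57212143-57224042) was the only one in 20 and Foxp3 (chrX:7573644-7595245) in 7. Cd4 and Cd40lg occurred together in 26 barcodes and Cd4 with Foxp3 in 12, Foxp3 with Cd40lg alone in 0, and all of them in 2. Cd40lg was therefore found in 2 of 21 Foxp3-positive barcodes and in 46 of 92 without Foxp3. These counts describe the choice and were not tested. At the edge of the rule, 8 CD4 T barcodes (5 control, 3 labelled HHcy, 0 WD) had exactly 2 Cd3 UMIs. A further 5 barcodes (3 control, 0 labelled HHcy, 2 WD) met all other criteria with 1 Cd3 UMI.

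Reference barcodes of other cell types held few UMIs of these genes. Among B-cell barcodes (at least 3 Cd79a UMIs, no Cd3, Csf1r or Csf3r UMI) a Cd4 UMI was present in 0.154% of 1948 in control, 0.304% of 3286 in the HHcy-labelled library and 0.184% of 1089 in WD. Foxp3 was present in 0.103%, 0.0304% and 0% of them, where 0 of 1089 allows a share of up to 0.275% (3 counts of the total). Macrophage barcodes chosen in the same way by Csf1r had a Cd4 UMI in 3.59% of 779, 4.47% of 470 and 2.29% of 1177. Macrophages of some tissues are known to carry Cd4. Median depths were 7560.5 UMIs in control B-cell barcodes and 5663 in control CD4 T barcodes.

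Transcripts of other cell types were present in the CD4 T barcodes, and their source was not tested. Lyz2, the myeloid lysozyme, had a UMI in 74.2% of CD4 T barcodes in control, 67.4% in the HHcy-labelled library and 77.8% in WD. Igkc, the immunoglobulin kappa constant region, had one in 45.2%, 95.7% and 41.7%. CD8 barcodes gave similar shares for Igkc, at 32.7%, 84.1% and 39.3%. Requiring under 2 UMIs in the sum of 8 further B-cell, macrophage and neutrophil genes left 11, 6 and 8 CD4 T barcodes.

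CD4 T barcodes made up a similar share of T barcodes in each library, with differences smaller than the counting error. The share was 29.8% in control (31 of 104, exact 95% interval 21.2 to 39.6%), 30.9% in the library labelled HHcy (46 of 149, 23.6 to 39.0%) and 30.8% in WD (36 of 117, 22.6 to 40.0%). As a log2 ratio to control this was 0.05 (interval -0.50 to 0.60) for the HHcy-labelled library and 0.05 (-0.53 to 0.62) for WD. Changes inside these intervals were not detectable at this depth. After each barcode was thinned to 1000 UMIs before the rule, the shares were 14.7% (11 of 75), 9.24% (11 of 119) and 6.67% (6 of 90). The log2 ratios then were -0.67 (-1.80 to 0.47) and -1.14 (-2.50 to 0.23). The classes around them were less even. CD8 barcodes were 47.1%, 42.3% and 23.9% of T barcodes, and barcodes with neither set of genes were 23.1%, 26.8% and 45.3%, so that WD was lowest for the first and highest for the second.

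**Figure D1:**
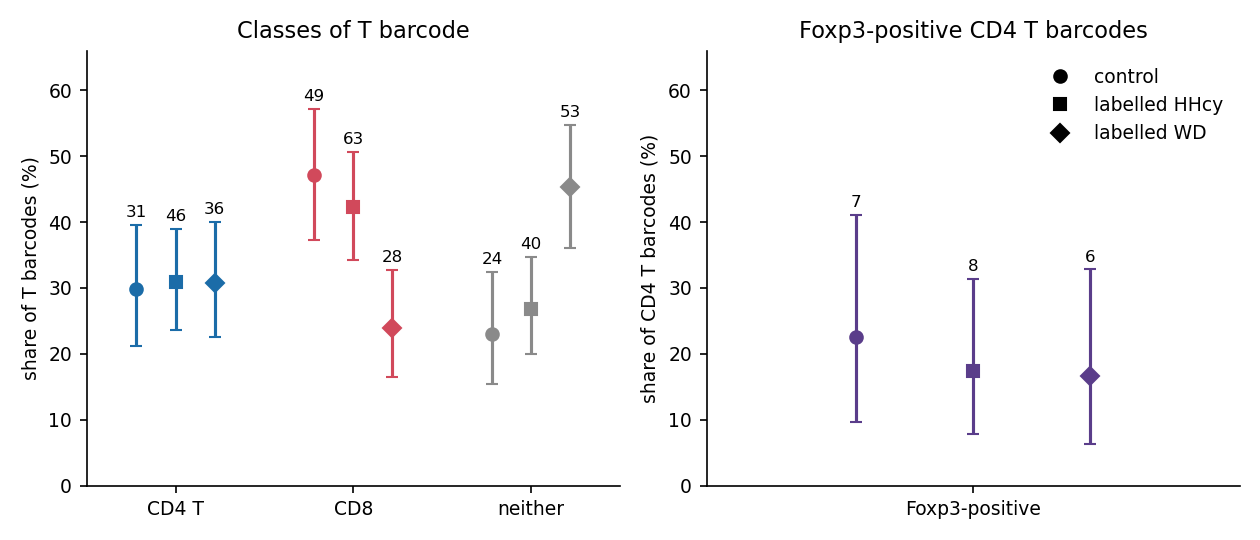
Left, share of T barcodes (percent, y axis) that were CD4 T, CD8 or neither in each library. Right, share of CD4 T barcodes with a Foxp3 UMI. Symbols stand for libraries, bars for exact 95% binomial intervals and numbers for barcodes. The CD4 T share lies between 29.8 and 30.9% in the 3 libraries.

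Foxp3-positive barcodes were a minority of CD4 T barcodes in each library. They were 7 of 31 in control (22.6%, 9.59 to 41.1%), 8 of 46 in the library labelled HHcy (17.4%, 7.82 to 31.4%) and 6 of 36 in WD (16.7%, 6.37 to 32.8%). The log2 ratio to control was -0.38 (-1.68 to 0.93) and -0.44 (-1.85 to 0.97). Both intervals include 0. When the 3 exclusion genes were not applied, the Foxp3-positive share was higher in the library labelled HHcy than in control (log2 ratio 0.45, -0.25 to 1.15) instead of lower.

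The exclusion genes removed most Cd3-positive barcodes. Of barcodes with at least 2 Cd3 UMIs, 66.5% of 310 in control, 77.4% of 659 in the HHcy-labelled library and 75.9% of 486 in WD carried a UMI of Cd79a, Csf1r or Csf3r. Among those, 69, 149 and 109 would otherwise have counted as CD4 T barcodes. Their median depth was 15688, 21978 and 23238 UMIs, against 5663, 6592 and 5411 in the CD4 T barcodes. No doublet caller was run.

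CD4 T barcodes differed from the other T barcodes of the same libraries in costimulatory receptors and helper genes on one side and cytotoxic and innate-like genes on the other. UMIs were summed per library and class and tested with edgeR's quasi-likelihood test with the library as a block. Of 5461 genes outside the rule, 16 were higher (0.293%) and 32 lower (0.586%) at an adjusted p under 0.05. The 3 CD4 T sums lay wholly above the 3 other sums for 6.24% of genes and wholly below them for 8.04%. The labels do not say whether a library holds 1 mouse or several. With the library as a block, the p-values rest only on how the class difference varied across these 3 libraries, each of another group. The counts were 68 and 82 without control, 34 and 58 without the library labelled HHcy and 27 and 59 without WD.

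Tnfrsf4 (chr4:156013843-156016612) encodes OX40, a costimulatory receptor of activated T cells and regulatory T cells. It stood at 122.8, 244.4 and 239.1 CPM in the CD4 T barcodes of control, the library labelled HHcy and WD. In CD8 barcodes it stood at 3.4, 59.3 and 0, and in barcodes with neither set of genes at 25.3, 30.9 and 74.3. The lowest CD4 T library was above every library of the other classes. The log2 fold change against other T barcodes was 2.49 (SE 0.27, edgeR adjusted p = 0.0004). Against CD8 barcodes alone Tnfrsf4 did not pass (edgeR adjusted p = 0.10).

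Ctla4 (chr1:60887000-60915832), an inhibitory receptor that competes with Cd28 for B7 ligands, stood at 418.3, 278.6 and 470.8 CPM in CD4 T barcodes. The CD8 values were 55.1, 102.8 and 144.4. The log2 fold change against other T barcodes was 2.06 (SE 0.23, edgeR adjusted p = 0.00042). Izumo1r (chr9:14885814-14903949), which encodes folate receptor 4, a surface protein of regulatory and anergic CD4 T cells, stood at 40.9, 191.8 and 62.5 CPM. It was highest in the library labelled HHcy, and the other T barcodes of that library reached 15 UMIs against 84. Its log2 fold change was 2.93 (SE 0.37, edgeR adjusted p = 0.0013). Tnfrsf18, encoding the costimulatory receptor GITR, was also higher (1.61, SE 0.24). All 4 belong to the regulatory T cell list, of which 18 of 25 genes could be tested. The list had 4 higher and 0 lower genes and a median log2 fold change of 0.91, beside 0.01 over all genes tested. Foxp3 was a gene of the rule, with 74 UMIs in CD4 T barcodes and 1 in other T barcodes. This rise is therefore not independent of the choice of barcodes. The 21 Foxp3-positive barcodes held 219 of 342 Ctla4 UMIs, 92 of 199 for Tnfrsf4, 51 of 124 for Tnfrsf18 and 35 of 110 for Izumo1r.

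**Figure D2:**
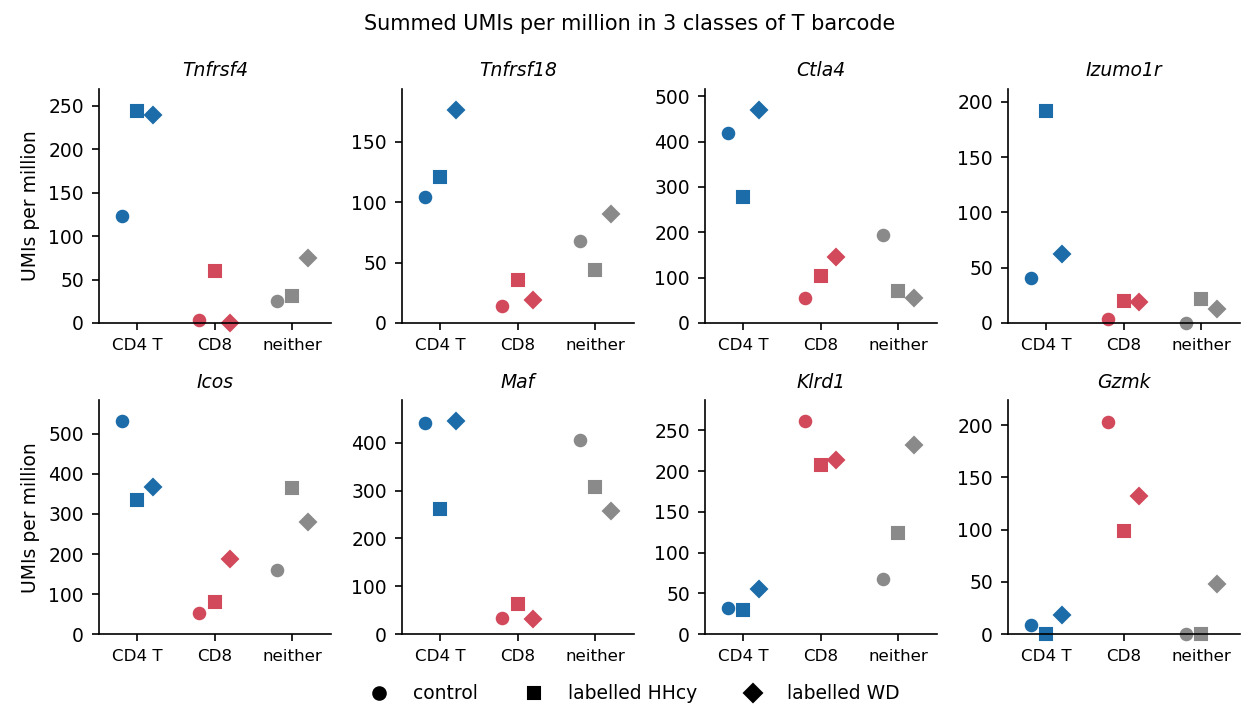
CPM (y axis, linear from 0) of 8 genes in CD4 T, CD8 and neither barcodes; each point is the sum over 1 library and class, and symbols stand for libraries. For Tnfrsf4, Tnfrsf18, Ctla4 and Izumo1r all 3 CD4 T points lie above all CD8 points, and for Klrd1 and Gzmk all lie below.

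Some genes of the follicular helper and B cell help list rose as well. Tnfsf8, encoding CD30 ligand, had 12, 81 and 31 UMIs in CD4 T barcodes and 13, 21 and 5 in the larger class of other T barcodes (log2 fold change 2.35, SE 0.39). Slamf6, a homophilic receptor that signals through the adaptor SAP, rose by 1.56 (SE 0.26). Maf, a transcription factor of several helper subsets, rose by 1.28 (SE 0.21). They are the 3 called genes among 7 tested of the 13 on the follicular helper and B cell help list, whose median was 1.28. As Cd4, Foxp3 and Cd40lg were genes of the rule, this rise is not independent of the choice of barcodes. The 21 Foxp3-positive barcodes held 147 of the 333 Maf UMIs. Of the same list, Cxcr5 was found in 1 of 21 Foxp3-positive and 5 of 92 Foxp3-negative barcodes. Bcl6 was found in 2 and 10 of them, and Il21 in 0 and 1. Further genes that rose were Cd5 (an inhibitor of T cell receptor signalling), Sit1 (an adaptor that dampens the same signal), Odc1 (polyamine synthesis), Ass1 (arginine synthesis), Glrx (glutaredoxin), S100a4, Ifi27l2a, Smco4 and the ribosomal gene Rps2. Their log2 fold changes ran from 0.53 for Rps2 to 1.98 for Ass1.

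The 32 genes that fell were led by cytotoxic and NK-receptor genes. Of the cytotoxic effector list, 7 of 15 tested genes fell and 0 rose, with a list median of -2.38. Cd8a and Cd8b1 were genes of the rule, and 140 of the 257 other T barcodes were CD8 barcodes. This fall is therefore not independent of the choice of barcodes. Prf1, encoding the pore-forming perforin, had 5 UMIs in all CD4 T barcodes and 104 in other T barcodes. The NK receptor gene Klrd1 stood at 31.8, 29.7 and 55.2 CPM in CD4 T barcodes against 261.6, 207.6 and 213.5 in CD8 barcodes. Its log2 fold change against other T barcodes was -2.40 (SE 0.25, edgeR adjusted p = 0.00036). Gzmk, Gzmb, Klrk1, Klrc1 and Ctsw fell too. Gzmb, a granzyme, fell by 1.83 on the log2 scale although its libraries overlapped between the classes.

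Of 9 tested genes of the gamma-delta and innate-like T cell list 2, Cd163l1 and Trdv4, fell and 0 rose, with a list median of -2.28. Cd163l1, a scavenger receptor of gamma-delta T cells, had 1 UMI against 202 in other T barcodes. Other genes of the list were present in CD4 T barcodes, such as Il17a with 144 UMIs in 7 barcodes, Tcrg-C2 with 26 in 8 and Tcrg-C1 with 17 in 8, none of them Foxp3-positive. At least 2 UMIs of the gamma-delta receptor genes Trdc, Tcrg-C1, Tcrg-C2 and Tcrg-C4 were found in 8 CD4 T barcodes in control, 2 in the HHcy-labelled library and 3 in WD. Trdv4, a gamma-delta receptor segment, was among 4 called genes with 0 UMIs in CD4 T barcodes. The others were Klrc2, Dntt (the terminal transferase of receptor rearrangement) and Arpp21. With the count of 0 set to 3 UMIs over all CD4 T barcodes, Klrc2 was 22.1-fold lower, Dntt 18.3-fold lower and Arpp21 15.8-fold lower. The upper 95% counting bounds of the ratio to other T barcodes were 0.0565, 0.0686 and 0.0797. The remaining genes that fell were varied. They included Egr1, Nr4a2 and Jun, immediate early genes, and Satb1 and Sox4, transcription factors of developing T cells.

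Against CD8 barcodes alone, 56 of 4150 genes were higher (1.35%) and 52 lower (1.25%) by the same test. Groups did not overlap for 7.81% of genes in the higher and 8.6% in the lower direction. Without the WD library only 2 were higher and 9 lower. Il2ra (chr2:11642807-11693193), encoding the high-affinity IL-2 receptor chain CD25, stood at 218.3, 66.2 and 92.0 CPM in CD4 T barcodes and at 6.9, 11.9 and 6.3 in CD8 barcodes. Control was highest among the CD4 T libraries, and the classes did not overlap. Barcodes with neither set of genes, at 75.9, 167.5 and 122.7, lay within the CD4 T range. The log2 fold change was 3.57 (SE 0.45, edgeR adjusted p = 3.8e-05). Areg, encoding the tissue-repair factor amphiregulin, rose by 5.32 (SE 0.58), with 10, 44 and 55 UMIs in CD4 T and 1, 0 and 1 in CD8 barcodes. In barcodes with neither set of genes it reached 242.2 CPM in WD, above the 202.3 of WD CD4 T barcodes. Il1rl1, encoding the IL-33 receptor ST2, rose by 3.47 (SE 0.45). These are among 9 of 17 tested regulatory T cell list genes that rose, with 0 that fell and a list median of 1.96. As Foxp3 was a gene of the rule, this rise is not independent of the choice of barcodes either. The 21 Foxp3-positive barcodes held 86 of 109 Areg UMIs of CD4 T barcodes, 53 of 88 for Il1rl1 and 42 of 102 for Il2ra.

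Icos (chr1:60977927-61000320), a costimulatory receptor that follicular helper and regulatory T cells use, stood at 532.0, 335.7 and 367.8 CPM in CD4 T barcodes. It stood at 51.6, 81.1 and 188.4 in CD8 barcodes and at 160.3, 365.9 and 281.0 in barcodes with neither set of genes. CD4 T and CD8 libraries did not overlap, whereas the neither class reached into the CD4 T range. The log2 fold change against CD8 was 2.08 (SE 0.41, edgeR adjusted p = 0.044), and Icos was not called against all other T barcodes. Icos had a UMI in 64.5%, 56.5% and 77.8% of CD4 T barcodes, and in 0.308%, 0.487% and 0.643% of B-cell barcodes.

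Other genes that rose against CD8 included Rora (1.90, SE 0.26), a transcription factor of tissue-resident and type 17 or type 2 lymphocytes, and Maf (2.95, SE 0.33). S100a4, Lmna and Capg rose by 1.90, 2.58 and 2.54, and the memory marker Cd44 by 1.28. Among chemokine receptors Ccr2 and Cxcr6 rose (1.07 and 1.27), and Ccr9, known from thymus and gut, fell by 3.63. Of the cytotoxic list 11 of 15 tested genes fell, among them Nkg7 and Eomes. As Cd8a and Cd8b1 were genes of the rule, this fall is not independent of the choice of barcodes. Nkg7 stood at 341.0, 210.1 and 823.9 CPM in CD4 T barcodes and at 1538.4, 1063.6 and 1871.5 in CD8 barcodes.

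Foxp3-positive CD4 T barcodes carried a regulatory profile beyond Foxp3. They held 62985, 61493 and 84458 UMIs in control, the library labelled HHcy and WD. One barcode of 31595 UMIs supplied 50.2% of the control sum and 1 of 38301 supplied 45.3% of the WD sum. Against the Foxp3-negative CD4 T barcodes, 7 of 1880 genes outside the rule were higher (0.372%) and 3 lower (0.16%) by edgeR's quasi-likelihood test. Groups did not overlap for 7.34% of genes in the higher and 5.74% in the lower direction. Without the WD library 0 genes passed in either direction, with 83 genes, rule genes included, at an unadjusted p under 0.05.

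Ikzf2 (chr1:69531214-69687245), encoding the regulatory T cell transcription factor Helios, had a UMI in 19 of 21 Foxp3-positive and 22 of 92 Foxp3-negative barcodes. It stood at 619.2, 796.8 and 355.2 CPM against 108.3, 55.8 and 112.0. Every Foxp3-positive sum was above every Foxp3-negative one, and the log2 fold change was 2.61 (SE 0.46, edgeR adjusted p = 0.023). Ctla4 had a UMI in 20 of 21 against 30 of 92 barcodes and stood at 1301.9, 829.4 and 1018.3 against 63.7, 188.7 and 224.1 CPM (2.71, SE 0.48). Areg (chr5:91139599-91148432) stood at 127.0, 406.6 and 627.5 against 12.7, 50.5 and 10.7 CPM (3.79, SE 0.57). Areg UMIs came from 9 of 21 Foxp3-positive barcodes, and in WD 1 barcode held 65.5% of those of the CD4 T barcodes. The others that rose were Dusp4 (a MAP kinase phosphatase), Glrx, Itgav (integrin alpha V) and Arl5a, with log2 fold changes between 2.23 and 3.21.

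The genes that fell are associated with naive, effector and adhesion programmes. Tcf7 (chr11:52252371-52283014), encoding the naive and stem-like T cell factor TCF1, had a UMI in 2 of 21 Foxp3-positive and 61 of 92 Foxp3-negative barcodes. It had 0, 4 and 0 UMIs in the Foxp3-positive sums and 35, 148 and 39 in the others (log2 fold change -3.93, SE 0.70, edgeR adjusted p = 0.023). Ccl5 (chr11:83525778-83530518), a chemokine of effector and cytotoxic T cells, had 3, 7 and 16 UMIs against 128, 275 and 638 (-3.72, SE 0.50). Its detection did not fall, with a UMI in 7 of 21 Foxp3-positive and 26 of 92 Foxp3-negative barcodes. Itgb1, the beta 1 integrin, fell by 2.02 on the log2 scale (SE 0.40).

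**Figure D3:**
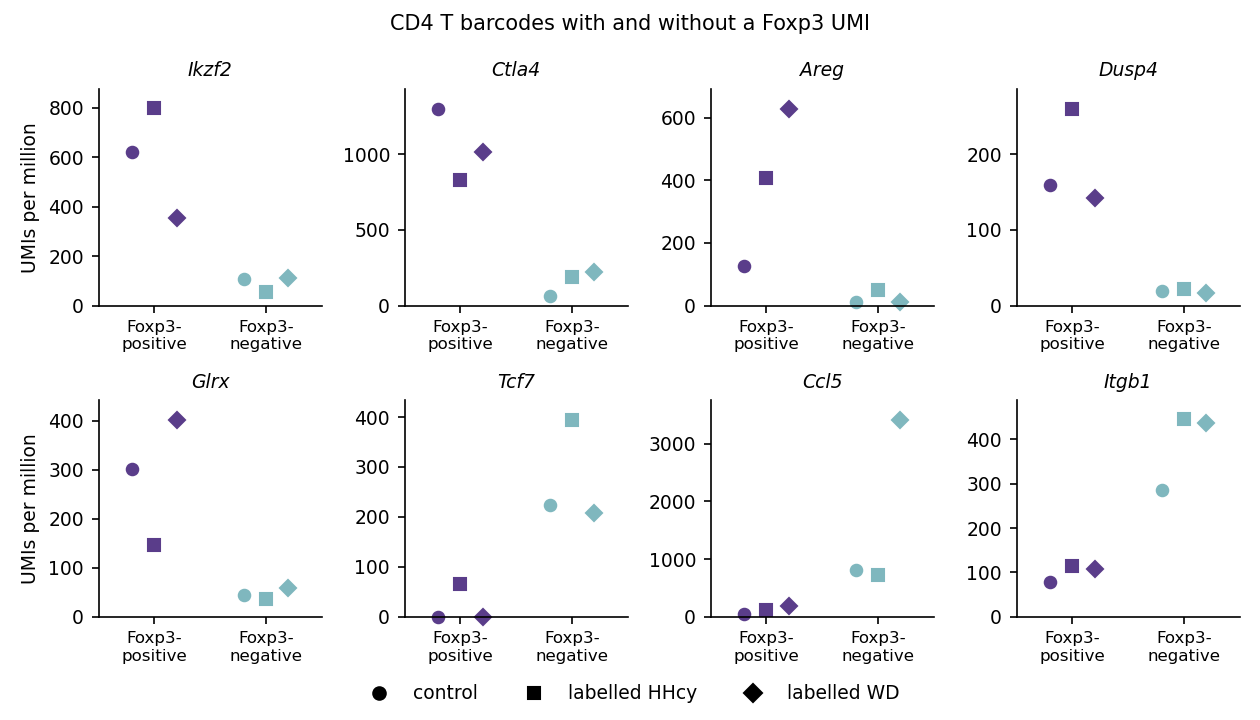
CPM (y axis, linear from 0) of 8 genes in Foxp3-positive and Foxp3-negative CD4 T barcodes; each point is the sum over 1 library and class, and symbols stand for libraries. Ikzf2, Ctla4, Areg, Dusp4 and Glrx are higher, and Tcf7, Ccl5 and Itgb1 lower, in the Foxp3-positive sums of all 3 libraries.

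Other regulatory T cell list genes gave no call but were detected as follows. Il2ra had a UMI in 14 of 21 Foxp3-positive and 24 of 92 Foxp3-negative barcodes. Tnfrsf4 had one in 17 of 21 and 25 of 92, and Tnfrsf18 in 15 of 21 and 37 of 92. Lrrc32, encoding the TGF-beta docking protein GARP, was found in 7 of 21 and 1 of 92, and Itgae, the CD103 integrin, in 7 of 21 and 1 of 92. Il10 was found in 5 of 21 and 2 of 92. Other genes of the list differed less. Nrp1 was found in 8 of 21 and 26 of 92, Izumo1r in 8 and 25, and Rora in 14 and 49. Prdm1 was found in 5 and 14, and Gpr83 in 1 and 1. Of the 25 list genes, 12 could be tested, 3 rose and 0 fell, with a median log2 fold change of 1.56 beside -0.01 over all genes tested. Median depths in the 3 libraries were 4342, 7007.5 and 7623 UMIs with Foxp3 and 5930, 6592 and 5322.5 without.

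Helper gates needed 1 UMI of their genes. The Th1 gate (Tbx21, Ifng, Cxcr3) was passed by 11, 16 and 16 CD4 T barcodes in control, the library labelled HHcy and WD. The Th2 gate (Il4, Il5, Il13, Il1rl1) was passed by 7, 5 and 5. The Tfh gate (Cxcr5, Bcl6, Il21) was passed by 4, 10 and 3. After thinning each barcode to 1000 UMIs the counts were 2, 8 and 8 for Th1, 4, 1 and 0 for Th2, and 1, 2 and 1 for Tfh. The Tfh gate was also passed by 68.0% of B-cell barcodes in control, and the Th2 gate by 11.9% of macrophage barcodes there, against 22.6% of CD4 T barcodes. Of CD8 barcodes 44.9%, 50.8% and 67.9% passed the Th1 gate, beside 35.5%, 34.8% and 44.4% of CD4 T barcodes. Cytotoxic transcripts (at least 2 UMIs of Gzma, Gzmb, Prf1, Nkg7 and Ccl5) were present in 12, 13 and 20 CD4 T barcodes, and in 41, 47 and 27 CD8 barcodes. After thinning these were 6, 6 and 12 CD4 T barcodes. A cycling gate (at least 2 UMIs of Mki67, Top2a, Birc5 and Pclaf) was passed by 3, 12 and 12 CD4 T barcodes, and after thinning by 3, 3 and 7. Before thinning the shares were 9.68%, 26.1% and 33.3% of CD4 T and 24.5%, 23.8% and 25.0% of CD8 barcodes.

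**Figure D4:**
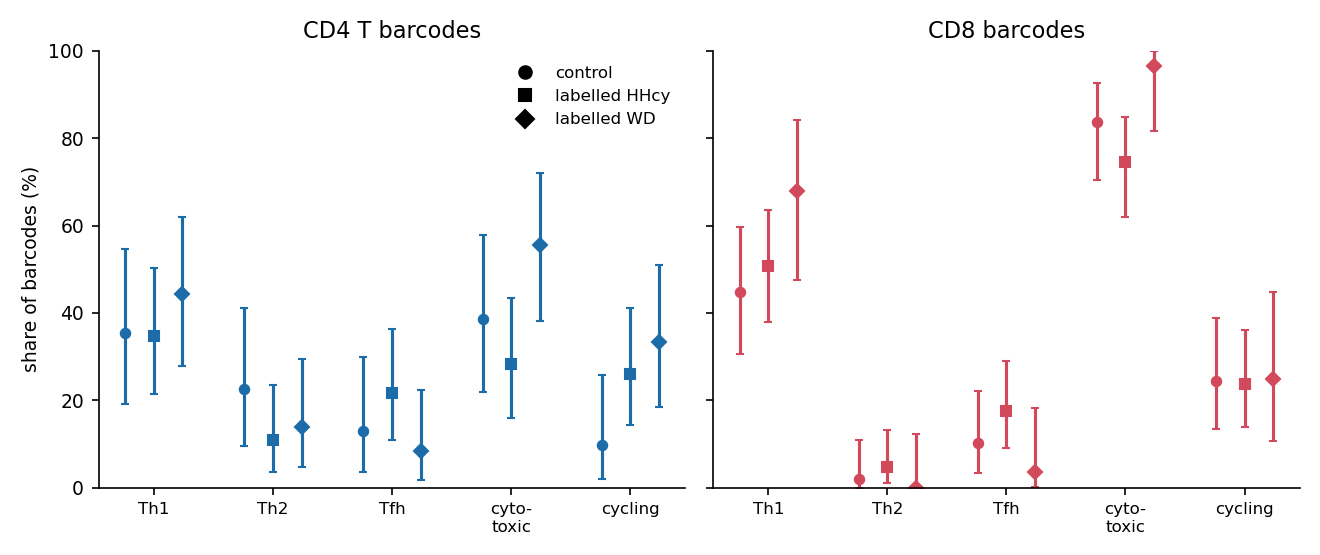
Share of CD4 T barcodes (left) and CD8 barcodes (right) that passed each gate (percent, y axis); symbols stand for libraries and bars for exact 95% binomial intervals. The cytotoxic gate is highest in WD in both classes, with intervals that overlap between libraries.

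Between libraries, CD4 T barcodes were compared by the ratio of summed CPM. Ratios have exact 95% counting intervals and no test. Of 4448 genes outside the rule with at least 20 UMIs in the 2 libraries compared, 387 were at least 2-fold higher (8.7%) and 277 at least 2-fold lower (6.23%) in the library labelled HHcy than in control. For WD they were 337 (9.22%) and 194 (5.31%) of 3654. Genes at under 3 UMIs in a library were set to 3 for these counts and for the medians below. The all-gene median log2 ratio was 0.05 for the library labelled HHcy and 0.11 for WD. Fewer cells of a type and less RNA per cell cannot be told apart in such sums.

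Immediate early and heat shock genes were lower in the library labelled HHcy. Of 18 measured genes of the dissociation and heat shock list, 9 were at least 2-fold lower and 0 higher, with a median of -0.93. Fos had 178 UMIs in control, 89 in the HHcy-labelled library and 139 in WD (log2 ratio -1.99, -2.38 to -1.62, to control for the library labelled HHcy). Zfp36, which destabilises inflammatory mRNAs, had 275, 160 and 198 (-1.77, -2.07 to -1.49), and Hspa1b 108, 34 and 83 (-2.66, -3.26 to -2.09). Over kept barcodes outside the CD4 T, CD8 and neither classes, called other kept barcodes below, the ratio ran in the same direction. It was -0.40 for Fos, -0.58 for Zfp36 and -1.27 for Hspa1b. Fos UMIs came from 25 control barcodes, of which 1 held 39.3%.

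Activation genes were lower more often than higher there. Of 21 measured activation and memory genes 7 were at least 2-fold lower and 1 higher (median -0.83). Nr4a1, an orphan receptor induced by T cell receptor signals, had 161, 79 and 86 UMIs (log2 ratio -2.02, -2.43 to -1.62). Il7r, the IL-7 receptor, had 167, 126 and 85 (-1.40, -1.75 to -1.06). On the T helper 1 list 2 of 8 measured genes were at least 2-fold higher and 2 lower (median -0.40). The lower ones were Cxcr6, with 74, 36 and 36 UMIs (-2.03, -2.65 to -1.44), and Il18r1, with 51, 28 and 33 (-1.86, -2.58 to -1.17). Klf4, a zinc finger transcription factor, had 140, 18 and 33 (-3.95, -4.75 to -3.24), spread over 17 control barcodes. For Cxcr6 and Il18r1 the other kept barcodes gave ratios of the opposite sign, 0.70 and 0.43. Il7r, Nr4a1, Cxcr6 and Klf4 were lower in WD than in control as well, by -1.28, -1.21, -1.35 and -2.39. Both ratios share the control library, so its values enter each.

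Of the naive T cell genes, Ccr7 and Tcf7 were higher in the library labelled HHcy, whereas Il7r, of the same list, was lower. Ccr7, the lymph node homing receptor, had 13, 102 and 24 UMIs (log2 ratio 1.98, 1.14 to 2.94), and Tcf7 had 35, 152 and 39 (1.13, 0.59 to 1.70). The follicular helper and B cell help list leaned the same way in both ratios, which share the control library. In WD 3 of 6 measured genes were at least 2-fold higher and 0 lower (median 0.77). In the library labelled HHcy 4 of 7 were, with 0 lower and a median of 1.23. Sh2d1a, encoding the adaptor SAP that T cells need to help B cells, had 11, 87 and 29 UMIs in 6, 23 and 13 barcodes (1.99, 1.08 to 3.04). Tnfsf8 had 12, 81 and 31 (1.76, 0.88 to 2.77). For Pdcd1 (1.23, -0.07 to 2.79) and Btla (1.40, -0.17 to 3.40), both inhibitory receptors, the interval included 0. Izumo1r had 9, 84 and 17 UMIs in 4, 21 and 8 barcodes (2.23, 1.24 to 3.41). In the other kept barcodes of the library labelled HHcy, Sh2d1a and Izumo1r were higher by similar amounts (1.84 and 2.01). Ccr7 (-0.02) and Tnfsf8 (-0.57) were not. Igkc, a B-cell transcript, was also higher in the CD4 T barcodes (2.05, 1.39 to 2.78), close to the 1.98 of the other kept barcodes.

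**Figure D5:**
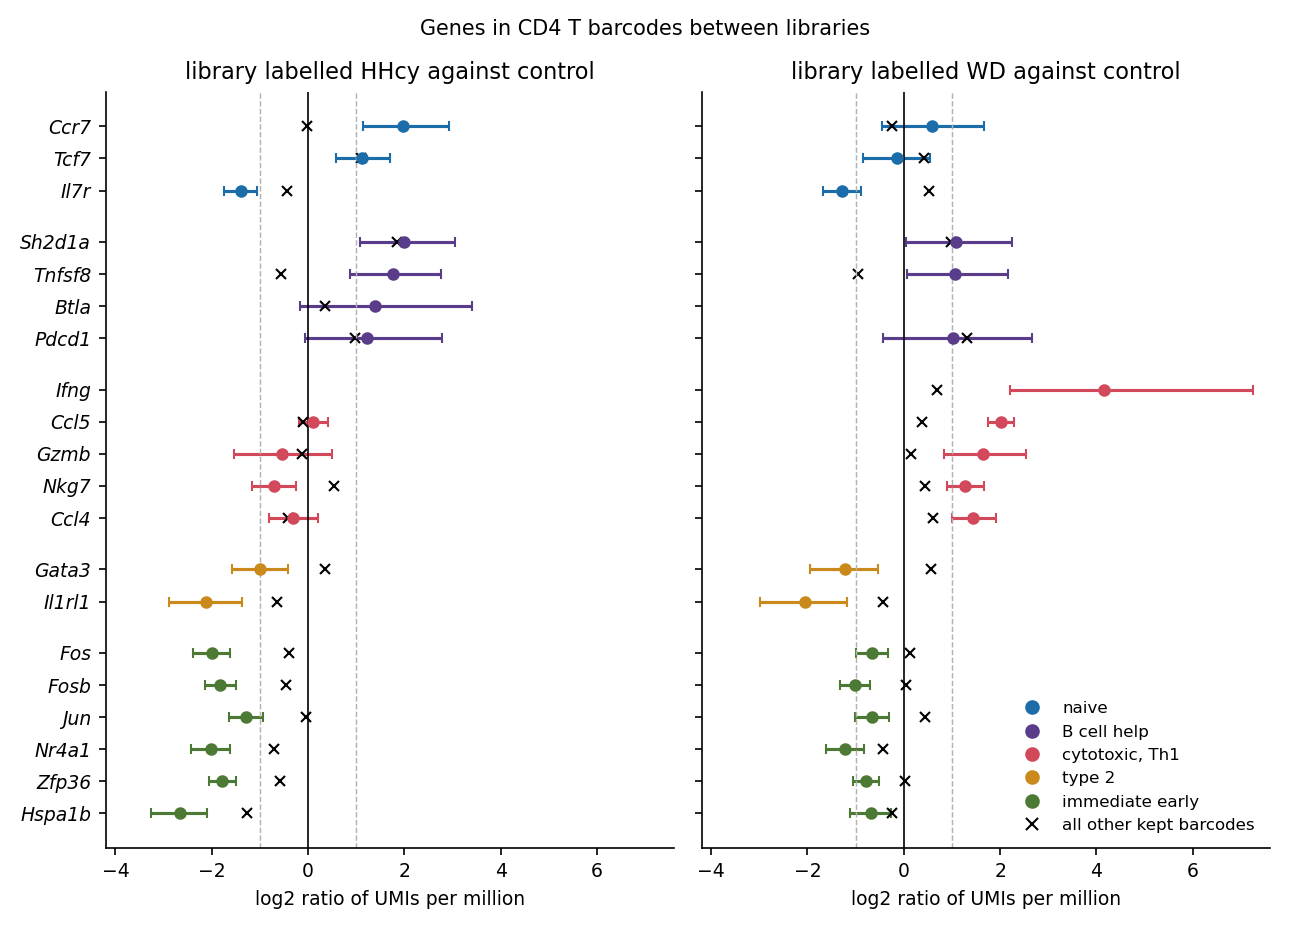
Log2 ratio of CPM to control in CD4 T barcodes (x axis) for genes of 5 groups. The libraries are those labelled HHcy (left) and WD (right). Bars are exact 95% counting intervals, and dashed lines mark 2-fold. Crosses, labelled all other kept barcodes, give the same ratio over kept barcodes outside the CD4 T, CD8 and neither classes. Immediate early genes lie below 0 in the left panel, and Ifng, Ccl5, Gzmb, Nkg7 and Ccl4 lie above 0 in the right panel.

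In WD, 6 of 10 measured genes of the cytotoxic list were at least 2-fold higher than in control and 0 lower, with a median of 1.36. Ccl5 had 131 UMIs in control, 282 in the HHcy-labelled library and 654 in WD (WD log2 ratio 2.01, 1.74 to 2.30). They came from 8, 9 and 16 barcodes, and the highest WD barcode held 31.3%. Ifng, the cytokine interferon gamma, had 2, 8 and 44 UMIs in 2, 4 and 12 barcodes (4.15, 2.21 to 7.24). Nkg7 had 75, 92 and 224 UMIs (1.27, 0.89 to 1.67), Ccl4 54, 87 and 181 (1.44, 0.99 to 1.91), and Gzmb 16, 22 and 62 (1.65, 0.84 to 2.54). Gzma had 0, 18 and 72 UMIs, with 72.2% of the WD ones in 1 barcode. With the control count set to 3 UMIs it was 19.4-fold higher in WD (lower counting bound of the log2 ratio 3.94). The other kept barcodes, which leave out the CD8 and neither barcodes, gave lower ratios for Ccl5, Ifng, Nkg7 and Gzma. They were 0.37 for Ccl5, 0.69 for Ifng, 0.44 for Nkg7 and -0.09 for Gzma. The cytotoxic gate above was highest in WD in CD8 barcodes too, at 83.7% in control, 74.6% in the HHcy-labelled library and 96.4% in WD. Barcodes with neither set of genes passed it in 54.2%, 40.0% and 54.7%. Whether the rise was particular to CD4 T barcodes was not tested. The summed NK marker list had 0, 28 and 87 UMIs in CD4 T barcodes, of which 1 WD barcode held 52. All 10 NK marker genes were at 0 in control, 6 in the HHcy-labelled library and 5 in WD. Of the macrophage and monocyte markers 5 of 10 measured were also at least 2-fold higher in WD and 0 lower (median 1.02), with summed UMIs of 212, 364 and 410, of which 1 WD barcode held 157. The part of either marker list in the result was not tested.

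Type 2 genes were lower in WD than in control: 4 of 5 measured were at least 2-fold lower and 1, Areg, higher (median -1.98). In the library labelled HHcy 2 of 4 measured were at least 2-fold lower and 1 higher (median -1.55). Both ratios share the control library. Gata3, the type 2 transcription factor, had 53, 53 and 28 UMIs (WD log2 ratio -1.23, -1.94 to -0.54), over 14, 18 and 15 barcodes. With the stricter exclusion of other cell types its ratio turned to 0.23. Il1rl1 had 50, 23 and 15 (-2.04, -2.98 to -1.19). The cytokines rested on few barcodes: all 30 control UMIs of Il5 were in 1 barcode, and Il13 had 16 UMIs in 2 control barcodes and 5 in 1 WD barcode. Areg had 10, 44 and 55 UMIs (2.15, 1.17 to 3.29), and averaging CPM over barcodes instead of summing turned this ratio to -0.019. Of 19 measured cell cycle genes 5 were at least 2-fold higher in WD and 0 lower (median 0.58). Without barcodes over 20000 UMIs, 10 of 13 were higher. The deepest control barcode, of 31595 UMIs, was among those left out. Il17a had 30, 105 and 9 UMIs over 3, 3 and 1 barcodes.

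Several of the largest ratios came from 1 barcode. In WD, 1 barcode held 535 of the 566 UMIs of the stromal and endothelial list, and Mgp, Dcn, Col1a2 and Sparc each had at least 94.6% of their WD UMIs in 1 barcode. In the library labelled HHcy, Ly6d had 95.1% of 185 UMIs and Irf8 75.0% of 76 in 1 barcode. Leaving out genes with over 50% of the UMIs of the higher library in 1 barcode changed the counts from 387 to 366 and from 277 to 254 for the library labelled HHcy. For WD they changed from 337 to 290 and from 194 to 178.

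Homocysteine, lipid and interferon genes showed small counts. Of 20 genes of homocysteine and one-carbon metabolism 8 were measured in the library labelled HHcy, 2 were at least 2-fold higher (Shmt2 and Tyms) and 0 lower, with a median of 0.38. Shmt2, a mitochondrial serine hydroxymethyltransferase, had 3, 21 and 5 UMIs (log2 ratio 1.81, 0.07 to 4.20). Tyms, thymidylate synthase, had 6, 43 and 19 (1.85, 0.61 to 3.37). In WD, of 7 cholesterol genes measured 0 were past 2-fold in either direction (median -0.19). Of 16 interferon-stimulated genes measured in the library labelled HHcy 1 was higher and 3 lower (median 0.04).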

How the data were processed

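Per the file headers, the authors deposited 1 matrix of raw UMI counts per library, written by Cell Ranger 4.0.0. The submitters' processing notes name Cell Ranger 2.2.0 and build mm10, and the difference was not resolved. Members and gene lists were chosen with earlier results of these data known. Barcodes were classed as described above from 32285 genes. UMIs were summed per library and class. Classes were compared with edgeR 4.0.16 in R 4.3.3 (filterByExpr, TMM, quasi-likelihood, library as block, Benjamini-Hochberg). The block pairs classes of the same library. Genes of the rule were left out of all gene counts except the count at an unadjusted p under 0.05. Libraries were compared by CPM with conditional binomial intervals (scipy 1.17.1). Genes at 0 took 3 UMIs over the group. Named genes were the label and rule genes, up to 5 genes of most UMIs per list, any list gene past a threshold, and the top 10 per direction and comparison (by p, or by interval farthest from 0). In simulated counts, the edgeR steps were tested on known changes. The simulated counts had the same dispersion for every gene and no added variation between libraries. They therefore do not measure error rates in the sums used here. Gene positions come from GENCODE M21 (GRCm38). The alternatives tried were other size factors, filters, thinning, cell limits, exclusions and left-out libraries. Genes of the gates, Btla, Pdcd1, Fos, Zfp36, Nr4a1, Shmt2, Lrrc32, Itgae, Il10, Nrp1, Prdm1, Gpr83, Sit1, Sox4 and Rps2 fall outside this rule and were named after their values were seen. Leaving out barcodes over 20000 UMIs and genes with over 50% of UMIs in 1 barcode were alternatives chosen after seeing the data.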

Additional observations from a re-analysis of the deposited data

Results flagged for a closer look

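For 10 named genes the difference between CD4 T and other T barcodes was past 2-fold in opposite directions in different libraries. The difference between libraries was not tested. Values are log2 ratios of summed CPM, CD4 T over other T barcodes. Cxcr6 stood at 1.13 in control, -1.17 in the HHcy-labelled library and -0.83 in WD, a gap of 2.30 between the first and the second. Tmem176b and Tmem176a, known from type 17 lymphocytes and myeloid cells, stood at 1.81 and 1.38 in control and -1.36 and -1.61 in the library labelled HHcy (gaps of 3.18 and 2.99). Klf4 stood at 1.58 and -1.92 (gap 3.50).

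H2-Aa, an MHC class II gene, stood at 1.58 in control and -1.23 in the library labelled HHcy (gap 2.81), and Cst3 at 1.53 and -3.04 (gap 4.57), with 0.87 in WD. Hspa1b stood at 1.46 in WD and -1.63 in the library labelled HHcy (gap 3.09). Pgm2l1 stood at 1.71 in control and -1.49 in WD (gap 3.20). Il17a stood at 2.81 in the library labelled HHcy and -2.58 in WD (gap 5.40), and Ly6d at 2.69 in the library labelled HHcy and -2.78 in control (gap 5.47). For Ly6d 1 barcode held 95.1% of the UMIs behind the higher value. For Cst3 1 barcode held 58.9% of the control and 81.6% of the WD UMIs of CD4 T barcodes, for H2-Aa 69.9% of the control ones, and for Il17a 88.6% of those in the library labelled HHcy.

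Barcodes that met the Cd3, Cd4 and Cd8 criteria but held a UMI of Cd79a, Csf1r or Csf3r entered no comparison. They numbered 2.23 per CD4 T barcode in control, 3.24 in the HHcy-labelled library and 3.03 in WD.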

How the results depend on the processing

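Thinning each barcode to 1000 UMIs before the rule moved the log2 ratio of the CD4 T share to -0.67 (library labelled HHcy) and -1.14 (WD), with intervals that include 0. Against other T barcodes (16 genes higher, 32 lower) the counts were 61 and 130 with no filter on low counts, 9 higher with DESeq2, 4 and 3 with the stricter exclusion, 14 lower after thinning, 21 lower without barcodes over 20000 UMIs, and 27 to 68 and 58 to 82 with 1 library left out. Against CD8 (56 and 52) they were 160 and 98 with no filter, 25 and 25 with DESeq2, 2 and 2 with the stricter exclusion, 15 and 12 after thinning, 116 higher without deep barcodes, and 2 to 81 and 9 to 77 with 1 library left out. The lowest of these came without WD, where all 56 and 52 genes had the same direction and 1 and 6 passed again. For Foxp3 (7 and 3) they were 23 and 23 with no filter, 1 lower after thinning, 25 and 10 without deep barcodes, and 0 to 12 and 0 to 16 with 1 library left out. Without the replicate block, which pairs classes of 1 library, the counts were 14 and 26, 36 and 35, and 8 and 4. Genes past 2-fold in the library labelled HHcy (387 and 277) were 91 and 96 with at least 50 UMIs, 38 and 33 after thinning, 34 and 149 with the stricter exclusion and 206 higher without deep barcodes. In WD (337 and 194) they were 82 and 47, 30 and 18, and 94 and 95 in the first 3 of these. Under the stricter exclusion signs turned for Rps2 (-0.024 against other T, -0.0059 against CD8), Rpl41 (-0.10), Tmem64 (0.060, library labelled HHcy), Gata3 (0.23) and Cxcl2 (-0.55, both WD). Averaging over barcodes turned Areg in WD to -0.019. The cause was not tested, except that thinning, the stricter exclusion and the 50-UMI limit leave fewer genes or barcodes. The Foxp3 fit under the stricter exclusion could not be fitted, and the Foxp3 share had no value under it or, for WD, after thinning before the rule.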
